A study of Homo sapiens with 40 samples.

Results

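Glutamine and glutamate metabolism was followed through 9 genes: the transporter genes SLC1A5, SLC38A1 and SLC38A2, the glutamine synthetase gene GLUL, the glutaminase gene GLS2, the glutamate dehydrogenase gene GLUD1, and the aminotransferase genes GOT1, GOT2 and GPT2. They are 9 of the 60708 genes counted in each library. The genes were chosen by name as a pathway group with earlier results of these same libraries known, so their levels and fold changes are given as a description of these libraries, and an adjusted p-value beside them says how large a difference was against the spread between libraries and is no independent evidence. RNA-seq counts were available for 24 libraries in 8 groups of 3, and the chromatin accessibility samples of the series were not analysed here.

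MI Ctrl and MI TGFβ are 3D spheres of MCF-10A, an immortalized and non-tumorigenic human mammary epithelial line, grown in ultra-low attachment plates and left untreated or given TGFβ1 at 2.5 ng/ml for 16 h. MII Ctrl and MII TGFβ are spheres of the HRAS-transformed derivative MCF-10AneoT under the same schedule. WT and SLUG KO are MDA-MB-231 cells, a mesenchymal-like triple-negative breast cancer line grown as a monolayer with serum. The knockout cells came from CRISPR/Cas9 editing of SNAI2, the gene of the transcription factor SLUG, and were expanded as single-cell colonies, and the sources used here do not say whether its libraries came from 1 clone or several. Csi and siSMAD2/3/4 are MDA-MB-231 monolayers transfected with a control siRNA or with siRNAs against SMAD2, SMAD3 and SMAD4, the signal transducers of TGFβ, and carry another batch label than the other groups. The labels call the 3 libraries of a group biological replicates and do not say what separated them, such as culture or passage.

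Glutamine enters cells through sodium-coupled carriers and is opened to glutamate and ammonia by glutaminases in mitochondria. Glutamate then passes its nitrogen to aspartate and alanine through aminotransferases, or gives it up as ammonia in the glutamate dehydrogenase reaction, and the carbon skeleton enters the citric acid cycle as oxoglutarate. Glutamine synthetase runs the other way and makes glutamine from glutamate and ammonia. Basal-like breast carcinoma cells are known to depend on external glutamine.

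Library totals ranged from 14124688 to 38406952 counts. Between replicates of 7 groups the correlation of log2 CPM over genes was at least 0.984, whereas WT replicate 2 stood apart from WT replicates 1 and 3 (r = 0.957 and 0.952, against 0.989 between those 2), and calls among the 9 genes that change without it are given both ways. HRAS was 5.45-fold higher in MII Ctrl than in MI Ctrl, and SMAD2, SMAD3 and SMAD4 fell by 1.92, 0.69 and 1.72 on the log2 scale in siSMAD2/3/4. SNAI2 was not lower but higher in the libraries labelled SLUG KO (log2 fold change 1.10 ± 0.21, edgeR adjusted p = 0.040). Its CPM were 63.6, 57.8 and 64.3 there and 30.25, 20.9 and 33.7 in WT. The RNA level of an edited gene does not show whether its reading frame is intact, so it does not check this label. The paper states that its knockout clones were checked by ddPCR and immunoblotting. Of 7 mammary epithelial markers at least 6 reached 1 CPM in each sphere group and 4 or 5 in each MDA-MB-231 group, with KRT5 at 0 counts in WT and SLUG KO, and the 4 immune markers summed to at most 0.738 CPM in any library. Of the endothelial markers, VWF stayed at or below 1.61 CPM, while PECAM1 reached 106.2 CPM in MII Ctrl and CDH5 reached 23.0 CPM in MI Ctrl.

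Levels are given as CPM, the count of a gene scaled to a common library total with TMM factors from all 24 libraries. Fold changes come from a fit of each comparison's own libraries with TMM factors of their own, so they can differ from a ratio of the CPM given. For MI TGFβ against MI Ctrl the CPM show larger rises and smaller falls than the fit, which matters for small changes such as that of GLUD1. A gene was called when the edgeR quasi-likelihood p, adjusted by the Benjamini-Hochberg method for every gene tested, was below 0.05. GLS2 had only 1 to 12 counts per library and did not pass the low-count filter in any of the 7 comparisons, so called genes are counted out of the 8 other genes.

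GLUL (ENSG00000135821.19, chr1:182378098-182392206, minus strand, GRCh38), the gene of glutamine synthetase and so of the only enzyme that makes glutamine, had the widest range of the 9. Its CPM were 3431, 3390 and 3450 in MI Ctrl and 663, 637 and 705 in MI TGFβ. MII Ctrl held 1880, 1784 and 1867 and MII TGFβ 1527, 1491 and 1504. The 4 sphere groups did not overlap, and MI-spheres held both the highest and the lowest of them. WT held 125, 84.8 and 151, SLUG KO 159, 137 and 149, Csi 146, 152 and 154, and siSMAD2/3/4 154, 152 and 150. The 4 MDA-MB-231 groups overlapped with each other and lay below every sphere library. Between the highest and lowest group means, MI Ctrl and WT, the ratio was 28.5.

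**Figure D1:**
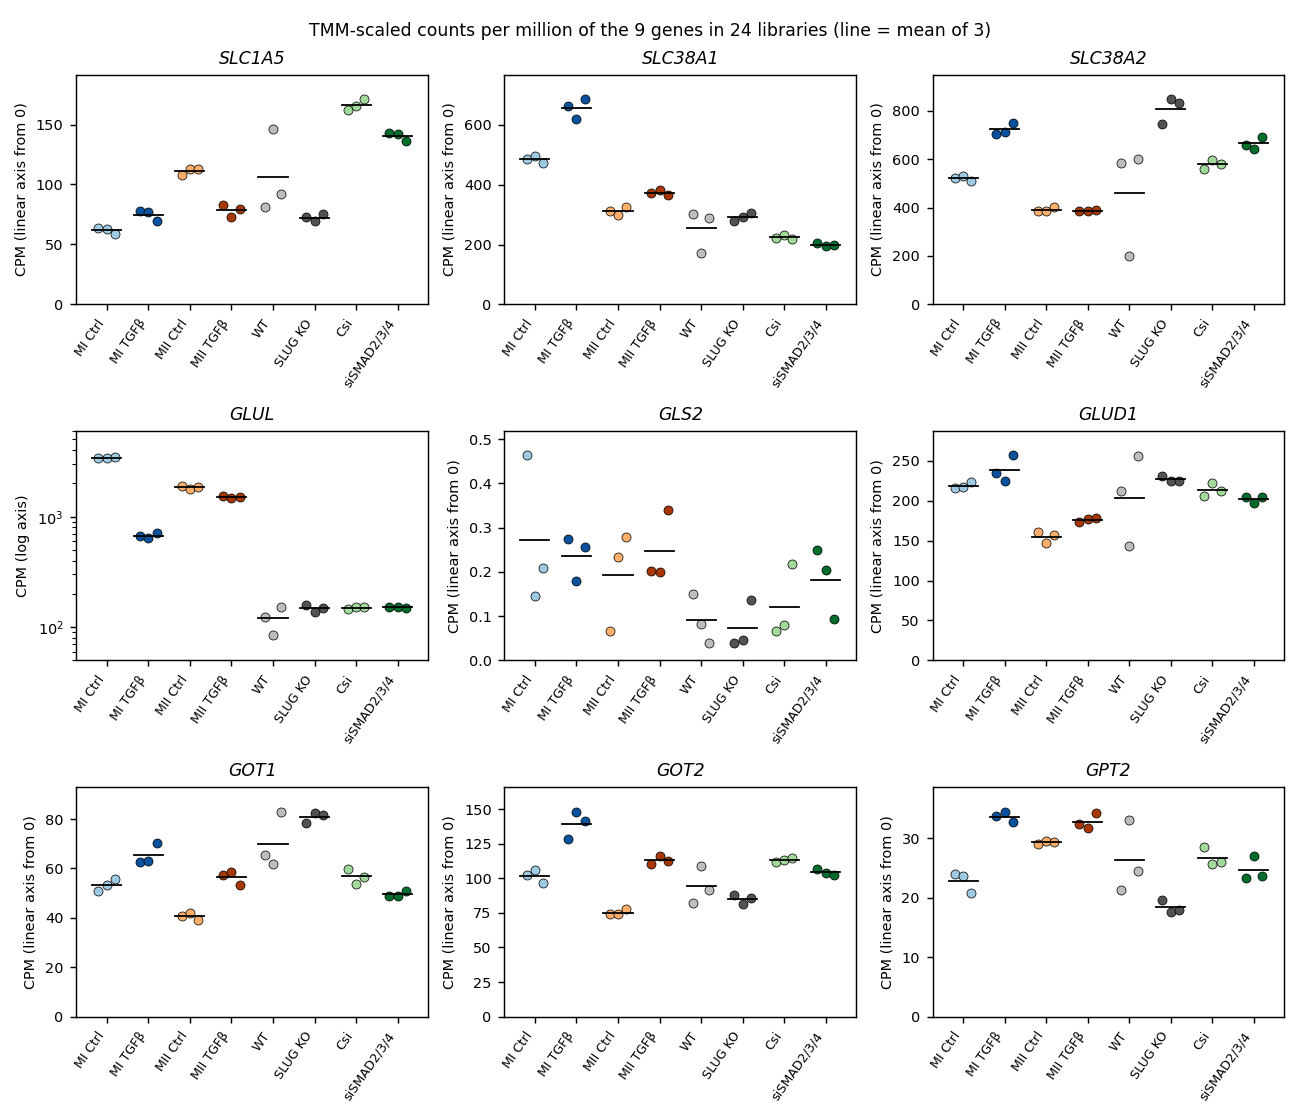
TMM-scaled CPM (y axis, linear from 0 except for GLUL, which has a log axis) of the 9 genes in each library, by group (x axis); each point is 1 library and each line the mean of 3. GLUL is the gene whose sphere groups separate most, from 3450 in MI Ctrl to 637 in MI TGFβ, and in the panels of SLC1A5, SLC38A2 and GPT2 WT replicate 2 lies apart from the other WT libraries.

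Under TGFβ, GLUL fell 5.42-fold in MI-spheres (log2 fold change -2.44 ± 0.05 SE) and 1.25-fold in MII-spheres (-0.33 ± 0.03). The response differed between the lines by 2.12 ± 0.06 on the log2 scale (MII minus MI, edgeR adjusted p = 2.51e-26 for the interaction). Before stimulation GLUL was already 1.84-fold lower in MII- than in MI-spheres (-0.88 ± 0.03), and after it the order of the lines was turned round, with every MII TGFβ library above every MI TGFβ library. The MII and MI comparisons share the control libraries of each line with the comparison of the unstimulated lines.

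In MDA-MB-231 cells GLUL was 28.6-fold lower in WT than in MI Ctrl (-4.84 ± 0.28, and -4.67 ± 0.11 without WT replicate 2). The line and the culture format differ together here and cannot be told apart. Neither SLUG KO against WT (0.28 ± 0.23, adjusted p = 0.54, and 0.09 ± 0.09 without WT replicate 2) nor siSMAD2/3/4 against Csi (0.01 ± 0.04, adjusted p = 0.90) passed the threshold for GLUL.

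The promoter of GLUL is shown because it belongs to the largest change. The window from RefSeq (GRCh38.p14, minus strand, chr1:182391741-182392040) runs from 250 bases before to 50 bases after the start site, and 72.7% of its bases are G or C.
GLUL: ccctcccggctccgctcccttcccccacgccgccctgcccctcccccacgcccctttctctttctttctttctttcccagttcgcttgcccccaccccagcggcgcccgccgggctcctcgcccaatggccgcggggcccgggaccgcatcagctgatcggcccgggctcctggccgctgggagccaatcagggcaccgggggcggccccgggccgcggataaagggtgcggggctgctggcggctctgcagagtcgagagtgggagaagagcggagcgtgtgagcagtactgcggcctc
Of short motifs, 3 were searched on both strands of the 12 RefSeq start windows of 8 genes: CAGACA, a SMAD-binding element, CACGTG, the E-box bound by MYC, and TGATGCAA, an amino acid response element bound by ATF4 with C/EBP factors. None was in this GLUL window or in the second one (chr1:182391292-182391591). CAGACA was in 0 of the 12 windows and in 16.9% of all 35116 windows of that length. The paper names the shorter CAGA and GC-rich stretches as bound by SMADs, and these were not searched. Absence of CAGACA therefore does not show that a window lacks a SMAD site. GPT2 had no entry.

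Over the 8 group means of log2 CPM, the genes most like GLUL of 22143 ranked were CDH5 (r = 0.995), ACADM (0.994), RAB11FIP1 (0.994), SCNN1B (0.993) and XDH (0.993). The points share libraries and the contrast between spheres and monolayers, so these are descriptions with no test. CDH5 encodes the endothelial cadherin, ACADM a mitochondrial fatty acid dehydrogenase, SCNN1B a subunit of the epithelial sodium channel and XDH xanthine dehydrogenase. Their CPM in MI Ctrl, MI TGFβ and WT were 22.2, 2.20 and 0.0134 for CDH5, and 140.0, 28.9 and 3.22 for XDH.

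Per length the place of GLUL among the 9 changed with line and treatment. In MI Ctrl GLUL stood first at 271 ± 2.42 CPM per kb of merged exons (SD, n = 3), ahead of SLC38A2 at 80.2 ± 1.61. In MI TGFβ it stood behind both SLC38 genes at 52.9 ± 2.73, after SLC38A2 (111.1 ± 3.87) and SLC38A1 (65.6 ± 3.31). In MII-spheres it stayed first with and without TGFβ, at 119.3 ± 1.45 and 146 ± 4.14. In all 4 MDA-MB-231 groups it stood seventh, between 9.52 and 12.03, and SLC38A2 stood first. GPT2 and GLS2 were eighth and ninth in every group. Merged exons include long untranslated parts that a cell may not use, so this measure can understate a gene's density over the transcripts in use.

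**Figure D2:**
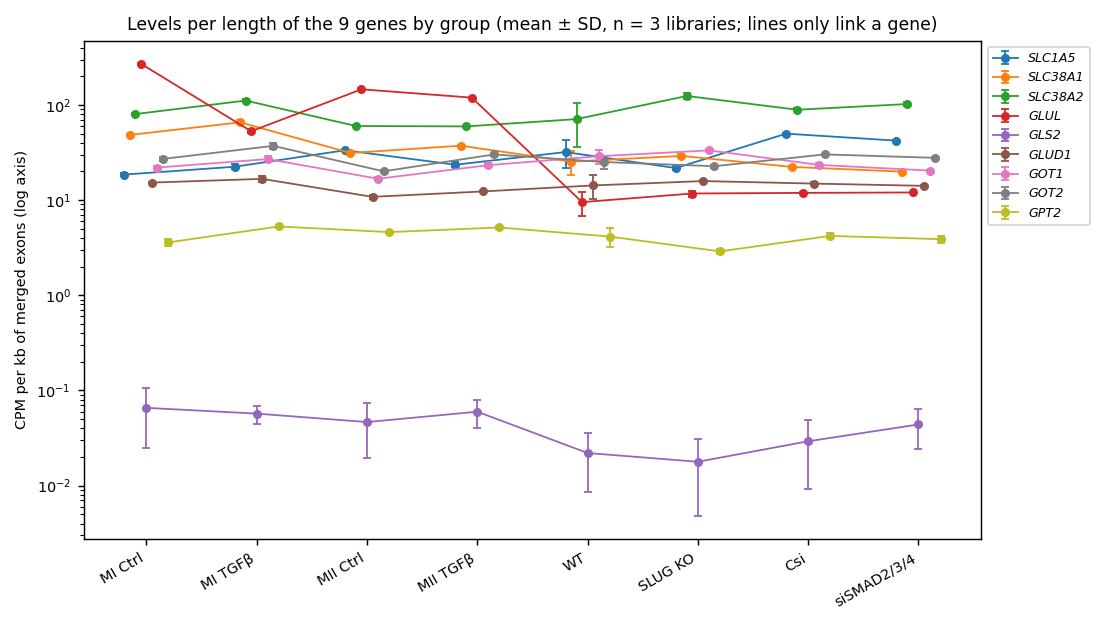
CPM per kb of merged exons (log y axis) of the 9 genes in the 8 groups (x axis), as mean ± SD of 3 libraries; lines only link the points of a gene. GLUL runs from 271 in MI Ctrl to 9.52 in WT and crosses most other genes, while GLS2 is at or below 0.0657 throughout.

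GLS2 (ENSG00000135423.13, chr12:56470944-56488414), the glutaminase gene known from liver, was near the limit of detection. Its counts were 12, 3 and 4 in MI Ctrl, 5, 4 and 6 in MI TGFβ, 1, 7 and 5 in MII Ctrl, 3, 3 and 5 in MII TGFβ, 4, 2 and 1 in WT, 1, 1 and 3 in SLUG KO, 2, 3 and 8 in Csi and 9, 7 and 3 in siSMAD2/3/4. All groups overlapped with their neighbours in the order of means, and no fold is given at these counts. Of its merged exon bases 77.1% are shared with SPRYD4 on the opposite strand, where fragments are ambiguous because the counting ignored strand, so the true level of GLS2 is uncertain. SPRYD4 itself had a mean of 21.9 ± 0.78 CPM in MI Ctrl and 7.03 ± 0.84 in WT.

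The 3 transporters have different jobs. SLC1A5, known as ASCT2, exchanges neutral amino acids and carries glutamine into many proliferating cells, while SLC38A1 and SLC38A2, known as SNAT1 and SNAT2, bring glutamine in with sodium, and SLC38A2 is a known target of amino acid shortage.

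SLC1A5 (ENSG00000105281.12, chr19:46774883-46788594) moved in opposite directions in the sphere lines. Its CPM were 63.7, 62.7 and 59.0 in MI Ctrl and 77.9, 76.8 and 69.3 in MI TGFβ. They were 108.2, 113 and 113 in MII Ctrl and 82.6, 72.9 and 79.8 in MII TGFβ. Treated and untreated libraries did not overlap in either line, and the treated libraries of the 2 lines overlapped with each other. SLC1A5 rose by 0.19 ± 0.06 in MI (adjusted p = 0.016), a call that was lost without MI Ctrl replicate 3 or without MI TGFβ replicate 1 (adjusted p = 0.068 and 0.062). It fell by 0.54 on the log2 scale in MII (SE 0.05), and the responses differed by -0.72 ± 0.08 (adjusted p = 6.07e-09). Before stimulation it was 1.81-fold higher in MII than in MI.

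SLC38A2 (ENSG00000134294.14, chr12:46358188-46372773) answered TGFβ in MI-spheres, where CPM were 521, 533 and 512 before and 704, 714 and 752 after. In MII Ctrl they were 387, 384 and 401 and in MII TGFβ 385, 388 and 389. The MI groups did not overlap and the MII groups did. SLC38A2 rose by 0.39 ± 0.05 in MI, was not called in MII (-0.05 ± 0.03, adjusted p = 0.23, but 0.026 among genes with at least 10 counts in every library), and differed in response by -0.43 ± 0.06 (adjusted p = 3.65e-07).

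SLC38A1 (ENSG00000111371.16, chr12:46183063-46270017) rose with TGFβ in both lines. Its means were 485 ± 12.6 CPM in MI Ctrl, 657 ± 33.1 in MI TGFβ, 313 ± 13.1 in MII Ctrl and 373 ± 8.23 in MII TGFβ, with no overlap between treated and untreated libraries. The log2 fold changes were 0.36 ± 0.05 in MI and 0.22 ± 0.04 in MII, and their difference was not called (-0.13 ± 0.06, adjusted p = 0.16, but 0.014 without MI TGFβ replicate 2). Unstimulated MII-spheres held less of both sodium-coupled transporters than MI-spheres, by 1.54-fold for SLC38A1 and 1.33-fold for SLC38A2, and more SLC1A5. The ratio of SLC1A5 to SLC38A2 per length was 0.231 ± 0.007 in MI Ctrl and 0.556 ± 0.016 in MII Ctrl.

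**Figure D3:**
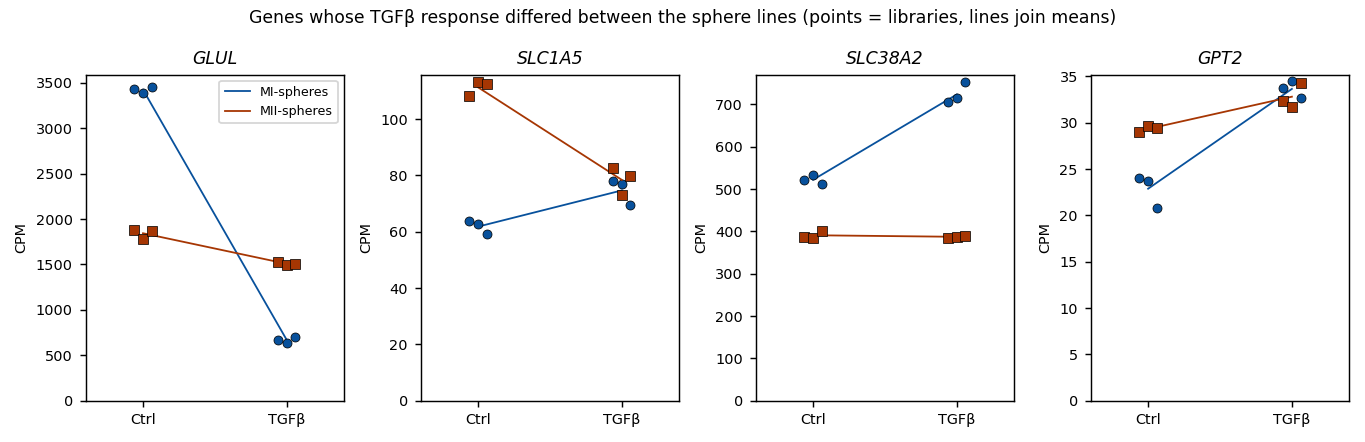
CPM (linear y axis from 0) of GLUL, SLC1A5, SLC38A2 and GPT2 in untreated (Ctrl) and TGFβ-treated spheres; points are libraries (3 per group, circles MI, squares MII) and lines join group means. GLUL drops steeply in MI-spheres and slightly in MII-spheres, SLC1A5 goes up in MI and down in MII, SLC38A2 goes up in MI and is level in MII, and GPT2 starts lower in MI and ends at about the same level.

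GLUD1 (ENSG00000148672.10, chr10:87050202-87094843) encodes the mitochondrial enzyme that turns glutamate into oxoglutarate and ammonia, and had the narrowest range of the 9, with a ratio of 1.54 between the highest and lowest group means. Means were 218 ± 3.92 CPM in MI Ctrl, 239 ± 16.1 in MI TGFβ, 155 ± 7.28 in MII Ctrl and 176 ± 2.69 in MII TGFβ. It was not called with TGFβ in MI (0.05 ± 0.05, adjusted p = 0.45), although these CPM, scaled over all 24 libraries and not within this comparison, did not overlap. It rose in MII by 0.16 ± 0.04. The responses did not differ by the test (0.12 ± 0.07, adjusted p = 0.23). Unstimulated MII-spheres held 1.41-fold less GLUD1 than MI-spheres. The near-identical copies GLUD1P3 and GLUD2 took 1301 and 231 counts over all libraries beside 121321 for GLUD1.

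The aminotransferases GOT1, in the cytosol, and GOT2, in mitochondria, join glutamate with aspartate and form the malate-aspartate shuttle, and GPT2 joins glutamate with alanine in mitochondria. GOT2 (ENSG00000125166.13, chr16:58707131-58734342) had CPM of 102.3, 105.8 and 96.9 in MI Ctrl and 128, 148 and 141 in MI TGFβ, and of 74.1, 74.1 and 77.6 in MII Ctrl and 110.3, 116 and 113 in MII TGFβ. GOT1 (ENSG00000120053.12, chr10:99396870-99430624) had 51.1, 53.2 and 55.6 in MI Ctrl and 62.8, 63.0 and 70.4 in MI TGFβ, and 40.9, 42.0 and 39.0 in MII Ctrl and 57.3, 58.4 and 53.5 in MII TGFβ. Treated libraries lay above untreated ones for both genes in both lines. GOT2 rose by 0.37 ± 0.06 in MI and 0.55 ± 0.05 in MII, and GOT1 by 0.22 ± 0.06 and 0.44 ± 0.06. The differences between the lines, 0.19 ± 0.08 for GOT2 and 0.23 ± 0.09 for GOT1, missed the threshold (adjusted p = 0.071 and 0.051). They stayed uncalled in 15 of 17 alternatives for GOT2 and in 13 of 17 for GOT1. The replicate block was among the alternatives that passed, for GOT2 (adjusted p = 0.046) and GOT1 (0.047). Both were lower in unstimulated MII- than MI-spheres, GOT2 1.34-fold and GOT1 1.30-fold. The partners of the shuttle, the malate dehydrogenase genes MDH1 and MDH2, rose with TGFβ too, by 0.46 ± 0.06 and 0.45 ± 0.05 in MI and by 0.52 ± 0.04 and 0.44 ± 0.04 in MII.

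GPT2 (ENSG00000166123.14, chr16:46884362-46931289) had CPM of 24.1, 23.8 and 20.8 in MI Ctrl and 33.7, 34.5 and 32.7 in MI TGFβ, and of 29.0, 29.6 and 29.4 in MII Ctrl and 32.3, 31.7 and 34.3 in MII TGFβ. MI Ctrl libraries lay below all other sphere libraries. GPT2 rose in MI by 0.47 ± 0.08 and was not called in MII (0.13 ± 0.07, adjusted p = 0.11), and the responses differed by -0.34 ± 0.10 (adjusted p = 0.014). Unstimulated MII-spheres held 1.29-fold more than MI-spheres, and GPT2 and SLC1A5 were the 2 genes higher in that comparison.

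GOT1 and SLC1A5 were the genes with a window that held TGATGCAA, printed here with the element or its reverse complement in capitals, on the minus strand of GRCh38.p14 as read 5′ to 3′ along the gene. The GOT1 window is chr10:99430575-99430874 and the SLC1A5 window, at a start site inside the gene, is chr19:46784765-46785064.
GOT1: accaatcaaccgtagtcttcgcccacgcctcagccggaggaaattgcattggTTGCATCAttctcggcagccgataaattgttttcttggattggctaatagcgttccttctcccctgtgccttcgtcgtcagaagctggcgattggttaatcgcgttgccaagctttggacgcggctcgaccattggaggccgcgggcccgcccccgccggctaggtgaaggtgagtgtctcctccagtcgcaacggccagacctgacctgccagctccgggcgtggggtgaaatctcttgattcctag
SLC1A5: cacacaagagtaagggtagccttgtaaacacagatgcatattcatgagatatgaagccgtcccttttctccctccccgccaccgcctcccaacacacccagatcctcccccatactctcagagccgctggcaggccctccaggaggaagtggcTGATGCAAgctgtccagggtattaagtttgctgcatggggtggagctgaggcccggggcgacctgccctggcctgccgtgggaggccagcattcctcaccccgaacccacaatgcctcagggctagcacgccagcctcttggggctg
The element was in 0.866% of the windows of that length that were searched. Under TGFβ both genes rose in MI-spheres, while GOT1 rose and SLC1A5 fell in MII-spheres. The E-box CACGTG was in another SLC1A5 window (chr19:46787244-46787543) and in 7.26% of the windows searched. A match is a run of letters and shows no binding.

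Counted together, 6 of the 8 tested genes rose and 1 fell with TGFβ in MI-spheres, where 28.7% of all 16863 genes tested were higher and 27.4% lower. In MII-spheres 4 rose and 2 fell (29.9% higher and 27.6% lower of 16396 genes). Unstimulated MII-spheres against MI-spheres gave 2 higher and 6 lower (31.7% and 32.5% of 17862 genes). The interaction of line and TGFβ was called for 4 genes. Its term was positive in 1, a higher response in MII than in MI, and negative in 3 (12.6% and 9.75% of 18591 genes). The median log2 fold change of the 8 was 0.29 in MI TGFβ, 0.14 in MII TGFβ and -0.42 between the unstimulated lines, beside -0.02, -0.02 and 0.02 over all genes tested. With so many genes called in each of these comparisons, and the genes chosen with results known, nothing is read from the counts.

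**Figure D4:**
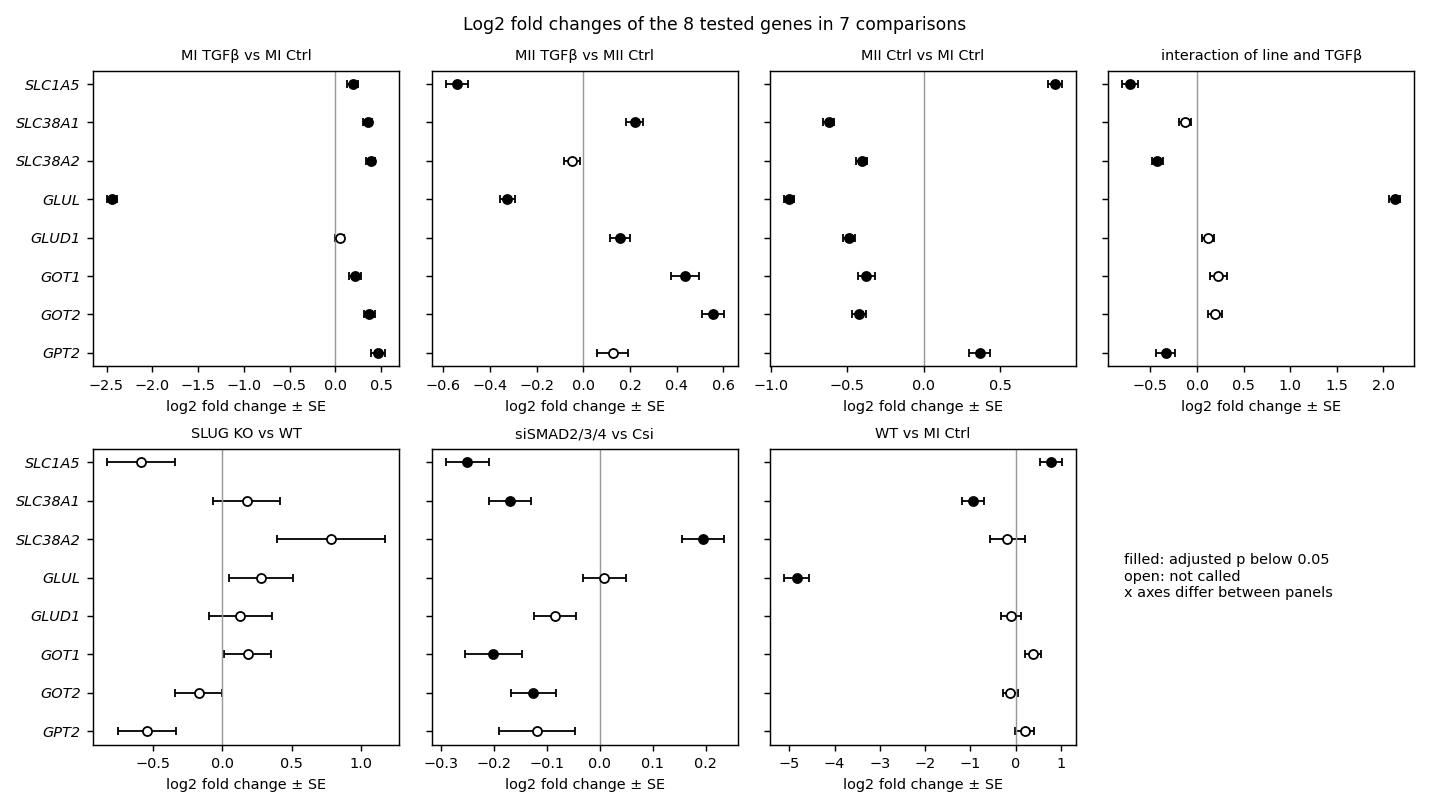
Log2 fold change (x axis, ± SE, ranges differ between panels) of the 8 tested genes (y axis) in the 7 comparisons; filled points have an adjusted p below 0.05. GLUL is the point farthest from 0 in MI TGFβ (-2.44), in the interaction (2.12) and in WT against MI Ctrl (-4.84), and SLUG KO against WT has open points with wide errors.

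The other genes of the pathway, 55 on a list drawn up by hand, were counted the same way. With TGFβ, 23 of 47 tested rose and 9 fell in MI-spheres, beside 28.7% and 27.4% of all genes tested. In MII-spheres 23 of 46 rose and 7 fell, beside 29.9% and 27.6%. The median log2 fold changes were 0.19 in MI and 0.23 in MII. The amidotransferase list, of enzymes that mostly use the amide nitrogen of glutamine for nucleotides, amino sugars and asparagine, had 6 higher and 3 lower of 11 in MI and 6 higher and 2 lower of 10 in MII. Among those higher in both lines was CPS1 (0.57 ± 0.06 and 0.41 ± 0.07), which uses free ammonia and not the amide of glutamine. The proline and ornithine list, which holds genes of both proline synthesis from glutamate and proline breakdown to it, had 5 of 5 tested genes higher in MI and 3 of 5 in MII. ALDH4A1, of the breakdown route, rose by 0.63 ± 0.06 on the log2 scale in MI. Of the mitochondrial carriers of aspartate, glutamate and oxoglutarate, 2 of 5 rose in MI and 4 of 5 in MII. None of them fell in either line. The transport list had 3 higher and 2 lower of 12 tested in MI and of 11 in MII, with medians of -0.08 and -0.09. The glutathione list had 1 higher and 2 lower of 4 in each line, with medians of -0.62 and -0.32. As for the 9 genes, nothing is read from these counts.

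PSAT1, which uses glutamate to make phosphoserine on the way to serine, rose 4.21-fold in MI, from 7.50 ± 0.34 to 33.4 ± 1.29 CPM, and by 0.66 ± 0.07 on the log2 scale in MII, and the responses differed by -1.41 ± 0.11. SLC6A14, a broad amino acid transporter, fell from 570 ± 5.47 to 211 ± 7.16 CPM in MI (-1.52 ± 0.05) and less in MII (-0.48 ± 0.03, difference 1.05 ± 0.06). BCAT1, the cytosolic branched-chain aminotransferase, fell in MI by 1.49 on the log2 scale and rose in MII by 0.82 ± 0.21, at means of 1.18 to 3.96 CPM (difference 2.31 ± 0.32).

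CHAC1, which breaks down glutathione, and ASNS, which makes asparagine from glutamine, fell in both lines at low levels. CHAC1 went from 5.35 ± 0.75 to 0.838 ± 0.30 CPM in MI and from 11.7 ± 0.23 to 3.80 ± 0.14 in MII, and ASNS from 2.23 to 0.544 and from 2.69 to 0.92. GCLC, which starts glutathione synthesis from glutamate, fell from 156 ± 2.15 to 74.0 ± 7.25 CPM in MI (-1.16 ± 0.06) and by 0.63 on the log2 scale in MII. The other synthesis genes on the glutathione list did not fall. GSS rose by 0.62 ± 0.05 in MI and 0.24 ± 0.06 in MII, and GCLM was not called in either line.

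Between the unstimulated lines 16 of 48 tested pathway genes were higher in MII and 20 lower, beside 31.7% and 32.5% of all genes tested. The exchanger SLC7A11, which gives out glutamate for cystine, was 3.76-fold higher in MII Ctrl (141 ± 3.43 against 37.9 ± 1.92 CPM) and the glutamate transporter SLC1A1 5.97-fold higher (42.9 ± 0.76 against 7.19 ± 1.01). The glutamate transporter SLC1A3 was 4.27-fold lower and the mitochondrial branched-chain aminotransferase BCAT2 2.62-fold lower. The interaction was called for 15 of 48. Its term, MII minus MI, was positive in 10 and negative in 5, beside 12.6% and 9.75% of all genes tested.

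In MDA-MB-231 cells, siSMAD2/3/4 against Csi compared SMAD-depleted with control cells without added TGFβ. SLC1A5 had CPM of 163, 165 and 171 in Csi and 143, 142 and 136 in siSMAD2/3/4, and SLC38A2 had 561, 598 and 579 in Csi and 661, 643 and 693 in siSMAD2/3/4. The groups did not overlap for either gene. SLC1A5 fell by 0.25 on the log2 scale (SE 0.04) and SLC38A1 by 0.17 (SE 0.04), from 224 ± 6.79 to 200 ± 5.39 CPM, while SLC38A2 rose by 0.19 ± 0.04. GOT1 fell by 0.20 (SE 0.05) and GOT2 by 0.13 (SE 0.04). In all, 1 of 8 was higher and 4 lower, beside 16.3% and 19.7% of 17696 genes tested. GLUD1 (-0.08 ± 0.04, adjusted p = 0.10) and GPT2 (-0.12 ± 0.07, adjusted p = 0.22) were not called.

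These changes were small beside the fall of SMAD2 and SMAD4. The file headers of siSMAD2/3/4 replicates 1 and 2 name another flow cell than replicate 3 and the Csi libraries. With flow cell as a term, siSMAD2/3/4 replicate 3 alone carries the difference from Csi and is assumed to vary like the other libraries. In that fit 3 genes kept their call, SLC1A5 (-0.28 ± 0.06), SLC38A1 (-0.16 ± 0.06) and SLC38A2 (0.26 ± 0.05), and 2 lost it, GOT1 (-0.15 ± 0.08, adjusted p = 0.15) and GOT2 (-0.14 ± 0.06, adjusted p = 0.074). GOT2 also lost its call without Csi replicate 3 or without siSMAD2/3/4 replicate 2 or 3. Of 49 pathway genes tested 10 were higher and 16 lower, beside 16.3% and 19.7% of all genes tested. Among those lower was SLC1A4, a neutral amino acid exchanger related to SLC1A5, from 24.1 ± 0.52 to 11.9 ± 0.04 CPM (-1.02 ± 0.07).

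For the libraries labelled SLUG KO against WT none of the 8 genes was called by edgeR's quasi-likelihood test, which called 3.33% of 17428 genes in either direction. Of the 8, 2 had an unadjusted p below 0.05 in that test, and DESeq2 called 0. SLC38A2 had CPM of 745, 849 and 832 in SLUG KO and 585, 201 and 599.6 in WT (0.78 ± 0.39, adjusted p = 0.33). SLC1A5 had 72.7, 69.2 and 75.1 in SLUG KO and 81.5, 146 and 92.0 in WT (-0.59 ± 0.24, adjusted p = 0.25), and GPT2 had 19.7, 17.6 and 17.9 and 21.3, 33.1 and 24.5 (-0.54 ± 0.21, adjusted p = 0.23). For these 3 of the 8 genes the groups did not overlap, which also held for 24 of 49 pathway genes tested. The share over all genes was not computed, so nothing is read from it. For the 3 genes WT replicate 2 was the WT library farthest from the others.

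Without WT replicate 2, 3 of 8 genes were called, where 31.2% of 17909 genes were: SLC38A2 higher (0.44 ± 0.10, adjusted p = 0.0027), SLC1A5 lower (-0.27 ± 0.09, adjusted p = 0.027) and GPT2 lower (-0.33 ± 0.11, adjusted p = 0.028). In that fit the 2 WT libraries left carry the spread of their group. SLC38A2 in WT replicate 2 was 0.339 times the mean of the other WT libraries, GLUL 0.615 times, GLUD1 0.611 times, SLC1A5 1.69 times and GPT2 1.45 times. Of the pathway genes 1 of 49 was called, CTPS1, the enzyme that makes CTP with nitrogen from glutamine, at 58.6 ± 3.01 CPM in SLUG KO and 118.9 ± 13.3 in WT (-1.05 ± 0.17, adjusted p = 0.020, from 0.077 to 0.18 without SLUG KO replicate 1, 2 or 3 or WT replicate 1, and -0.94 ± 0.09, adjusted p = 9.11e-07, without WT replicate 2), and 28 of 50 were without WT replicate 2.

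WT cells against MI-spheres, which share the MI Ctrl libraries with the TGFβ comparison, gave 1 higher and 2 lower of 8, beside 28.1% and 25.9% of 18732 genes. SLC1A5 was higher (0.78 ± 0.24, adjusted p = 0.030, from 0.096 to 0.12 without any 1 MI Ctrl library, and 0.45 ± 0.07 without WT replicate 2) and SLC38A1 lower (-0.94 ± 0.24, and -0.75 ± 0.07 without it), next to GLUL. Without MI Ctrl replicate 2 GLUL alone was called. Without WT replicate 2, 5 genes were called, where 74.9% of 19572 genes were, with GOT1 higher (0.44 ± 0.09) and GOT2 lower (-0.26 ± 0.07) added. Among pathway genes 19 of 48 were higher and 12 lower, and 23 of 49 were higher and 20 lower without WT replicate 2. BCAT1 stood at 190 ± 87.8 CPM in WT and 3.13 ± 0.36 in MI Ctrl, and GFPT2, which makes amino sugar from glutamine, at 40.4 ± 3.14 and 1.17 ± 0.17. SLC6A14 (1.76 ± 1.02 against 570 ± 5.47 CPM) and CPS1, the mitochondrial carbamoyl phosphate synthetase (6.93 ± 0.61 against 43.8 ± 0.88), went the other way. Without WT replicate 2 the log2 fold changes were 6.24 for BCAT1, 5.03 for GFPT2, -7.95 for SLC6A14 and -2.77 for CPS1, beside 5.92, 5.10, -8.34 and -2.67 with it.

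Over all 8 groups, SLC1A5 was highest in Csi (166 ± 4.42 CPM) and lowest in MI Ctrl (61.8 ± 2.47), and from MII Ctrl down to SLUG KO its neighbouring groups overlapped. SLC38A1 was highest in MI TGFβ and lowest in siSMAD2/3/4, and from MII Ctrl down to Csi its neighbours overlapped. GOT2 and GLUD1 were highest in MI TGFβ and lowest in MII Ctrl. GOT1 was highest in SLUG KO (80.7 ± 2.02) and lowest in MII Ctrl. Per length it exceeded GOT2 in SLUG KO, with a ratio of 1.47 ± 0.09, and in part of the WT libraries, where the ratio ran from 0.881 to 1.398. It did so in no sphere library, where the ratio reached at most 0.888. Nor did it in the other MDA-MB-231 groups, where the ratio reached at most 0.828 in Csi and 0.769 in siSMAD2/3/4. Csi and siSMAD2/3/4 carry another batch label, so their place in these orders cannot be told apart from the batch.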

How the data were processed

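RNA was sequenced from 24 libraries in 8 groups of 3. The authors used Trimmomatic to trim the paired reads and two-pass STAR to align them to GRCh38, counted fragments over GENCODE v38 exons with featureCounts 2.0.0, and deposited 1 table of raw counts per library. Per the file headers, both mates had to map with a mapping quality of at least 30, chimeric pairs were left out and strand was ignored, so genes that overlap on opposite strands share ambiguous fragments. Per-million scaling, fold changes and tests below were computed from these counts.

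Symbols and positions came from GENCODE v44 of the same genome (60463 of 60708 genes, 99.6%). Analyses used R 4.3.3, edgeR 4.0.16, DESeq2 1.42.0, Python 3.11.15, pandas 2.3.3 and matplotlib 3.10.9. Each of 7 comparisons was fitted on its own 6 libraries, the interaction on the 12 sphere libraries: filterByExpr, TMM, edgeR's quasi-likelihood test, and Benjamini-Hochberg adjustment over all genes tested, with a threshold of 0.05. The SE is the log2 fold change divided by the square root of its F value. Levels are CPM scaled with TMM over all 24 libraries, and levels per length divide CPM by the merged exon length in the tables. With totals of 14124688 to 38406952 counts, counting error was largest for GLS2. It also adds to the SE of genes with fewer counts, such as GPT2, at 384 to 974 counts per library. The precision rests further on 3 libraries per group. An exact permutation test of 3 against 3 cannot give a p below 0.1. The fits were tested on simulated counts.

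The 9 genes, the pathway list, the markers and the comparisons were chosen with earlier results of these data known. All 9 genes are named in every comparison, and of the other pathway genes up to 4 per comparison, those called whose log2 fold change exceeded 1 in size, by smallest adjusted p. Genes of a short list beyond that, such as the proline route, MDH1 and MDH2, were named after their values were seen. Some genes of the lists are counted but not reported by name here. Alternatives were a replicate block, DESeq2, edgeR with the size factors of DESeq2, leaving out the low-count filter, a minimum of 10 counts per library, a joint fit of the 12 sphere libraries, a flow cell term, and leaving out each library in turn. Replicate numbers did not pair the libraries, so the block is not the main design. Promoter windows came from RefSeq on GRCh38.p14 and matched 8 of 9 genes.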

Additional observations from a re-analysis of the deposited data

Results flagged for a closer look

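For 4 of the 8 tested genes the TGFβ response differed between MII- and MI-spheres by the interaction term of edgeR's quasi-likelihood test. The fit used the 12 sphere libraries. Of all genes tested, 12.6% were called with a positive term and 9.75% with a negative one. The difference, MII minus MI on the log2 scale, was 2.12 for GLUL (adjusted p = 2.51e-26), which fell in both lines. It was -0.72 for SLC1A5 (adjusted p = 6.07e-09), which rose in MI and fell in MII, with treated and untreated libraries apart in each line. It was -0.43 for SLC38A2 (adjusted p = 3.65e-07) and -0.34 for GPT2 (adjusted p = 0.014), both called in MI and not in MII. All 4 kept their call under each of the 17 alternatives run, with a largest adjusted p of 0.049, for GPT2. With 3 libraries per group, single libraries were not tested as outliers.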

How the results depend on the processing

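Of the recomputed fold changes of genes called among the 9, 401 kept their direction and their call and 12 kept their direction and lost the call. Of those of genes not called among the 9, 264 stayed so, 13 passed the threshold and 6 changed sign. The counts of called genes among the 9 and on the pathway list stayed within 1.5 times in 161 of 174 recomputations. Those outside it were in the MDA-MB-231 comparisons. For siSMAD2/3/4 against Csi, 3 of the 9 were called with flow cell as a term, a fit that rests on siSMAD2/3/4 replicate 3 alone, in place of 5. For SLUG KO against WT, pathway calls were 4 with DESeq2 and 3 with no low-count filter in place of 1, ranged from 0 to 28 when libraries were left out in turn, and calls among the 9 ranged from 0 to 3. For WT against MI Ctrl calls among the 9 ranged from 1 to 5. The highest of each of these 3 ranges was without WT replicate 2. The lowest was without MI Ctrl replicate 2 for WT against MI Ctrl, and for the pathway calls without WT replicate 1 or any SLUG KO library. Sign changes arose only on leaving out a library. For SLUG KO against WT the log2 fold change of SLC38A1 ranged from -0.029 to 0.34 and of GLUD1 from -0.057 to 0.32. For WT against MI Ctrl, SLC38A2 ranged from -0.43 to 0.15, GLUD1 from -0.32 to 0.067 and GPT2 from -0.033 to 0.30. GLUL in siSMAD2/3/4 against Csi ranged from -0.0019 to 0.024. The cause was not tested.

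Replicate numbers did not pair libraries across groups (correlations of deviations from -0.123 to 0.051), so the samples share only a number. With the replicate number as a block, calls among the 9 were 7, 6, 8, 6, 0, 5 and 2, and pathway calls 32, 30, 36, 16, 0, 25 and 29, for MI TGFβ, MII TGFβ, MII against MI Ctrl, the interaction, SLUG KO, siSMAD2/3/4 and WT against MI Ctrl. Depth limits GLS2 most, at 1 to 12 counts per library, and adds counting error for genes such as GPT2, at 384 to 974.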
